A study of Mus musculus with 20 samples.

Results

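The nuclear-encoded genes of the mitochondrial respiratory chain were taken from the RNA table of the series by their symbols. The names Ndufa, Ndufb, Ndufc, Ndufs and Ndufv followed by a number gave complex I, Sdha to Sdhd gave complex II, names starting with Uqcr gave complex III, the Cox subunit names gave complex IV and names starting with Atp5 gave the ATP synthase. The rule found 84 of the 21937 genes listed, of which 37 belonged to complex I, 4 to complex II, 8 to complex III, 18 to complex IV and 17 to the ATP synthase. It used no measured value. The RNA came from cultured mouse neurons at day 10, with the strain given as 159.2 in the labels. The treated group received 200 µM NMDA, which opens the glutamate receptors named after it, for 6 h, and the control group received only DMSO, the solvent, for the same time. Each group had 2 RNA libraries. Whether these are separate cultures is not given in the labels, and the p-values therefore rest on a spread that may be only technical. The other libraries of the series measured open chromatin and H3K27 acetylation and are not analysed here.

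The respiratory chain sits in the inner mitochondrial membrane. Complexes I and II pass electrons from NADH and succinate to ubiquinone, complex III passes them on to cytochrome c, and complex IV hands them to oxygen. Complexes I, III and IV pump protons, and the ATP synthase makes ATP as the protons flow back. In complexes I, III and IV and the ATP synthase, a core partly encoded in mitochondrial DNA is joined by small accessory subunits encoded in the nucleus, while all subunits of complex II are nuclear, and neurons rely on this pathway for most of their ATP. The nuclear respiratory factors NRF-1 and NRF-2 (GABP, a factor of the ETS family) and YY1 are known to bind the promoters of many of these genes.

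Respiratory chain genes were mostly higher after NMDA, by small amounts. A total of 33 of the 76 members that could be tested rose (43.4%) and 1 fell (1.32%), beside 20.5% and 21.5% of all genes tested, and no member changed by 2-fold in either direction. The rises were 2 (2.63%) without control replicate 1, beside 7.7% of all genes. In a grouping made after the values had been seen, 1 of 17 core, catalytic or central stalk genes rose and 30 of 54 other subunit genes did. The largest rise was in Cox6b2, an isoform of a complex IV subunit best known from testis, and the single fall was in Ndufs1, the largest iron-sulphur subunit of complex I.

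In each complex the member with the largest rise among those with a listed promoter was taken. Sdhd was used because Sdhc, which rose more, had none listed. Motif shares over all members are given further below. The promoters of these 5 members are printed here. Each is the stretch of 250 bases before the annotated start of the gene, written 5′ to 3′ on the gene's strand, from RefSeq for the mouse build GRCm38.p6, which is newer than the build mm9 of the deposited table. Capitals mark the letters CCGGAAG, the core of an ETS site, on either strand, and in the Sdhd promoter also a match to the longer of 2 NRF-1 motifs. Ndufb7 lies at chr8:83566508-83566757 on the plus strand, and Sdhd at chr9:50603850-50604099, Uqcr11 at chr10:80406822-80407071, Cox6b2 at chr7:4753095-4753344 and Atp5e at chr2:174464102-174464351 on the minus strand.
Ndufb7: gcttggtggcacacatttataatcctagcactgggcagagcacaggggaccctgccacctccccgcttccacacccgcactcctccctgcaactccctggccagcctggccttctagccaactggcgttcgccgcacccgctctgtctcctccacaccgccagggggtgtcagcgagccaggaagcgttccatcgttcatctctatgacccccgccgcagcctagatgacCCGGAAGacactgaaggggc
Sdhd: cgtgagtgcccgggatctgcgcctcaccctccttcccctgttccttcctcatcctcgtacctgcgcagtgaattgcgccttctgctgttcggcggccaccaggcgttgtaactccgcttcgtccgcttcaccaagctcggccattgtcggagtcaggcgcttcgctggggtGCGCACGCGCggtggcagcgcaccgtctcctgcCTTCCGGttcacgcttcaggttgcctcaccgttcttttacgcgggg
Uqcr11: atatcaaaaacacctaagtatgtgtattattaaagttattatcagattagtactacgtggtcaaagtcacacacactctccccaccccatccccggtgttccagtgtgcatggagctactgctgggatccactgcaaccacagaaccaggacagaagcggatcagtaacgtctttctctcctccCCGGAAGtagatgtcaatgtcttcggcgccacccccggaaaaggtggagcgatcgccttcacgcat
Cox6b2: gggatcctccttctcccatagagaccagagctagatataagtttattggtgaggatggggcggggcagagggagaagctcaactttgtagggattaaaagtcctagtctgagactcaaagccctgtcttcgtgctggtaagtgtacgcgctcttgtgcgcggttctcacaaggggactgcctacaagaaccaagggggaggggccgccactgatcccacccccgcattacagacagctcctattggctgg
Atp5e: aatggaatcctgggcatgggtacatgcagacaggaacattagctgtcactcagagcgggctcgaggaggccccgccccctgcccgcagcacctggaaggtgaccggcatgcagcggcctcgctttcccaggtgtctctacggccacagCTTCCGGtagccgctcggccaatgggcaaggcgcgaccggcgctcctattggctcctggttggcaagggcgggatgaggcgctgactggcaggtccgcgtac

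Counting the base before the start as -1, the ETS letters began at -20 in Ndufb7, -46 in Sdhd, -66 in Uqcr11 and -102 in Atp5e. The NRF-1 match in Sdhd began at -79. The Cox6b2 window held none of the motifs searched. Of the 84 members, 69 had a promoter in the RefSeq table, and the letters CCGGAAG were in those of 12 members (17.4%), against 7.83% of all 27025 genes with a promoter and 14.6% of the genes tested in the RNA comparison. By outcome, they were in 9 of the 28 members with a promoter that rose (32.1%) and in 3 of the 37 that were tested and did not pass (8.11%). The split by outcome uses the calls of these same data and was not tested. The 9 were Ndufb6, Ndufb7, Sdhd, Uqcr11, Uqcrh, Cox6a1, Cox6b1, Atp5e and Atp5l. A longer NRF-1 motif was in 13 members (18.8%), against 8.93% of the tested genes, and was about as frequent among members that rose (17.9%) as among those that did not pass (18.9%). A shorter NRF-1 motif that can overlap it, GCGCATGC, was in 8 members (11.6%) and 4.88% of the tested genes. It was in 14.3% of the members that rose and 10.8% of those that did not pass. The YY1 letters AANATGGC were in 7 members (10.1%) and 4.92% of the tested genes. They were in 7.14% of the members that rose and 13.5% of those that did not pass. Both strands were searched, and these matches describe letters in the windows, not bound sites.

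Depth ranged from 15.0 M to 20.1 M reads over the 4 RNA libraries. Values below are the authors' normalised read counts. A gene was tested where its mean over the 4 libraries was at least 10, which 76 members passed. The others were Ndufa4l2, Ndufs5, Cox4i2, Cox6a2, Cox7a1, Cox7b2, Cox8b and Cox8c. Fold changes come from limma on log2(normalised count + 1), given as NMDA minus control with the standard error (SE), and a gene was said to rise or fall where p, adjusted by Benjamini-Hochberg over all 13888 genes tested, was below 0.05. The change after NMDA was wide across the transcriptome, with 20.5% of all genes tested rising and 21.5% falling. Over the members the median was 0.22 on the log2 scale, and over all genes it was -0.01. Both NMDA libraries lay above both control libraries in 55 members and below them in 11, while over all genes 36.6% lay above and 37.8% below.

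**Figure D1:**
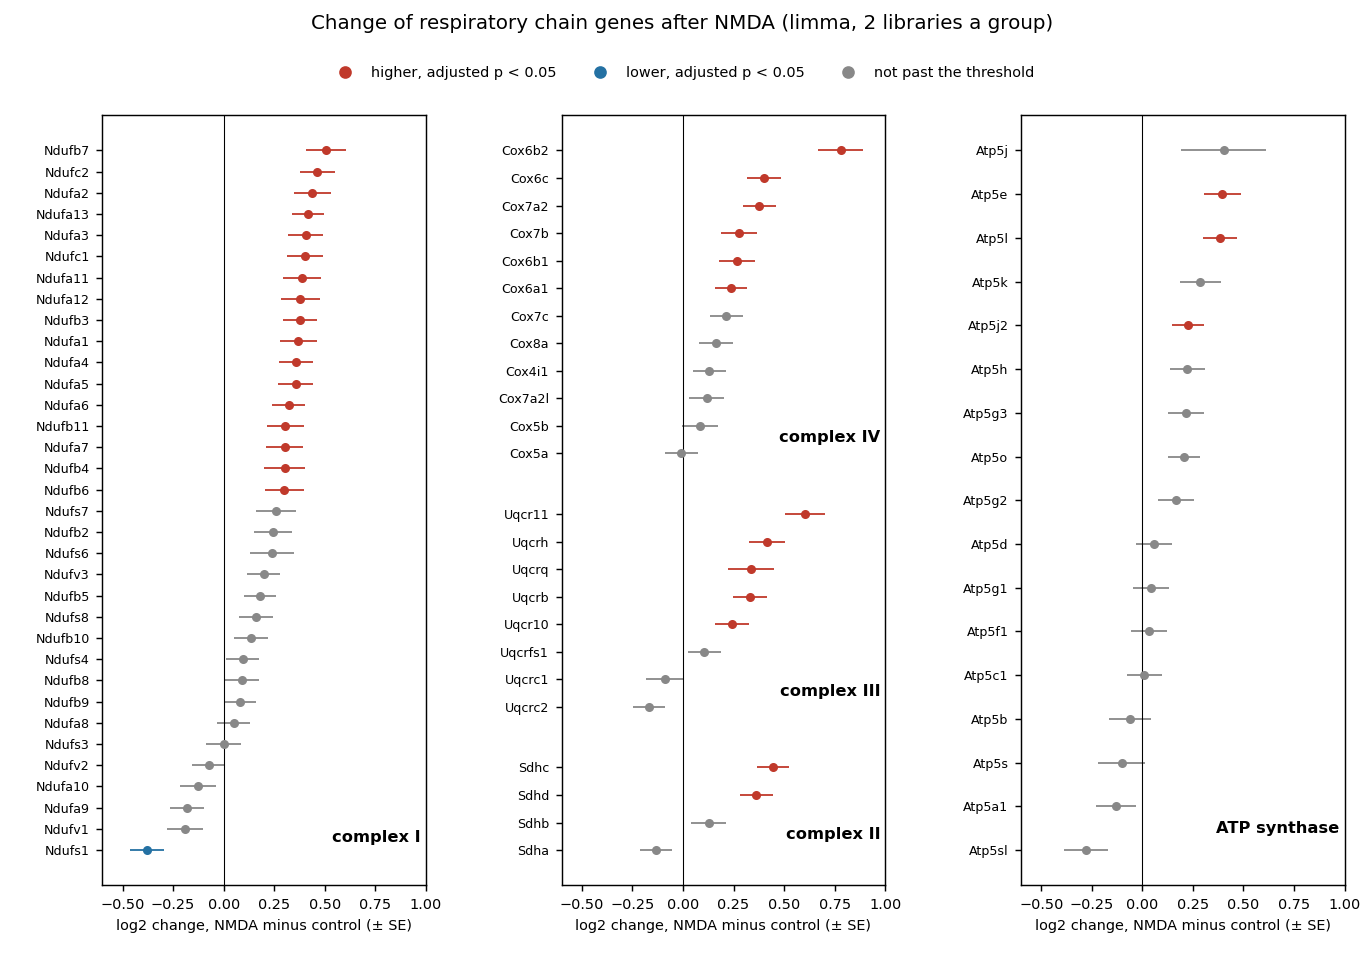
Log2 change (NMDA minus control) with its SE from limma for the members tested, 1 of which is not drawn, sorted within each complex, with 2 libraries a group. Red points rose and the blue point fell at an adjusted p below 0.05, and changes ran from -0.38 in Ndufs1 to 0.78 in Cox6b2.

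With either control library left out, fewer members were called, as were fewer of all genes tested. The spread then came from the NMDA libraries alone, and the reason for the lower count was not tested. The change stayed above 0 in 60 of the 76 members without control replicate 1 and in 63 without control replicate 2. It was above 0 in 57 members without NMDA replicate 1 and in 65 without NMDA replicate 2, beside 62 with all libraries. On whole reads recovered from the deposited values, edgeR called 34 members up and 1 down, beside 20.9% and 20.7% of all genes, and DESeq2 called 29 up and 1 down, beside 16.3% and 16.7%.

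**Figure D2:**
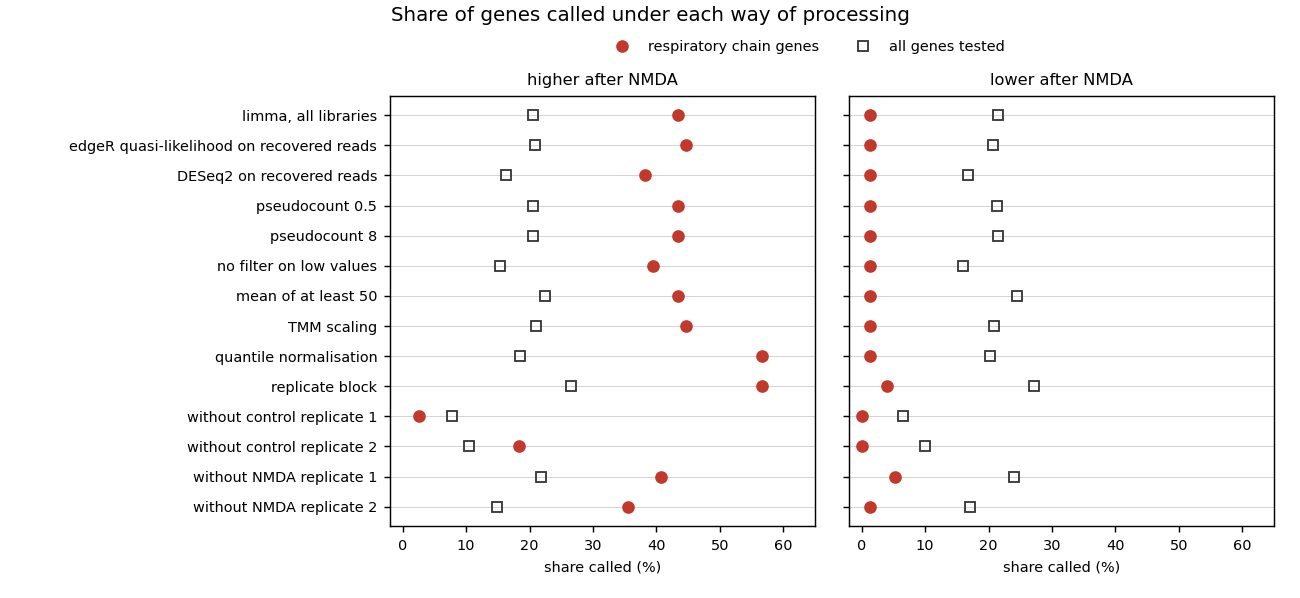
Share of the 76 members (red circles) and of all genes tested (open squares) that were called higher (left) or lower (right) after NMDA under each way of processing, in percent. The share of members called higher was above that of all genes in every setting drawn except without control replicate 1, where it was 2.63% against 7.7%.

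Complex I, the NADH dehydrogenase and the entry point for most electrons, had 35 members tested. In all 17 rose (48.6%) and 1 fell (2.86%), beside 20.5% and 21.5% of all genes tested, with a median of 0.26 on the log2 scale. Of the 7 nuclear core subunit genes, whose products hold the flavin and the iron-sulphur clusters, none rose and Ndufs1 fell. Ndufs1 read 3884 and 3626 in the controls and 2988 and 2793 after NMDA. Both NMDA libraries were lower, with a log2 change of -0.38 ± 0.08 (SE) and an adjusted p of 0.00835. Ndufv1, the flavin subunit that takes the electrons from NADH, had a log2 change of -0.19 (adjusted p = 0.114) and Ndufs7 one of 0.26 (adjusted p = 0.0661), the lowest and highest of the core genes beside Ndufs1. The median of the 7 core genes was -0.05, and it moved above 0 (to 0.04 at most) with quantile normalisation or without NMDA replicate 2.

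The accessory subunits of complex I hold the enzyme together and are needed for its assembly. Among those named Ndufa, 9 of 12 rose, with a median log2 change of 0.36. Ndufa4, which also rose and is counted among the 17 risen genes, is left out of these 12 and given below. Among those named Ndufb or Ndufc 7 of 12 rose, with a median of 0.30. Ndufb7, a subunit on the intermembrane space side of the membrane arm, read 474 and 522 in the controls and 707 and 708 after NMDA, a rise of 0.51 ± 0.10 (1.42-fold, adjusted p = 0.00453). Ndufc2 read 1292 and 1430 against 1866 and 1882 (0.46 ± 0.09, adjusted p = 0.00387). Ndufa2 read 747 and 807 against 1020 and 1087 (0.44 ± 0.09, adjusted p = 0.00611). In these genes both NMDA libraries lay above both controls. Ndufa13, also known as GRIM-19, a protein with reported roles in cell death as well as in complex I, read 1275 and 1306 against 1705 and 1738 (0.42 ± 0.08, adjusted p = 0.00438). Ndufa9 and Ndufa10 had log2 changes of -0.18 and -0.13, lower in both NMDA libraries, and did not pass. The accessory genes named Ndufs or Ndufv that were tested, Ndufs4, Ndufs6 and Ndufv3, had changes between 0.09 and 0.24 and none passed. Ndufs5 was listed at 0 in 3 libraries and at 1.2 in control replicate 2, which may not be its true level, since how reads of this gene were assigned is not given. By limma, 6 of the 17 risen genes rose without control replicate 2 and none without control replicate 1, and the fall of Ndufs1 was lost without control replicate 1 (adjusted p = 0.13) or 2 (0.0582).

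**Figure D3:**
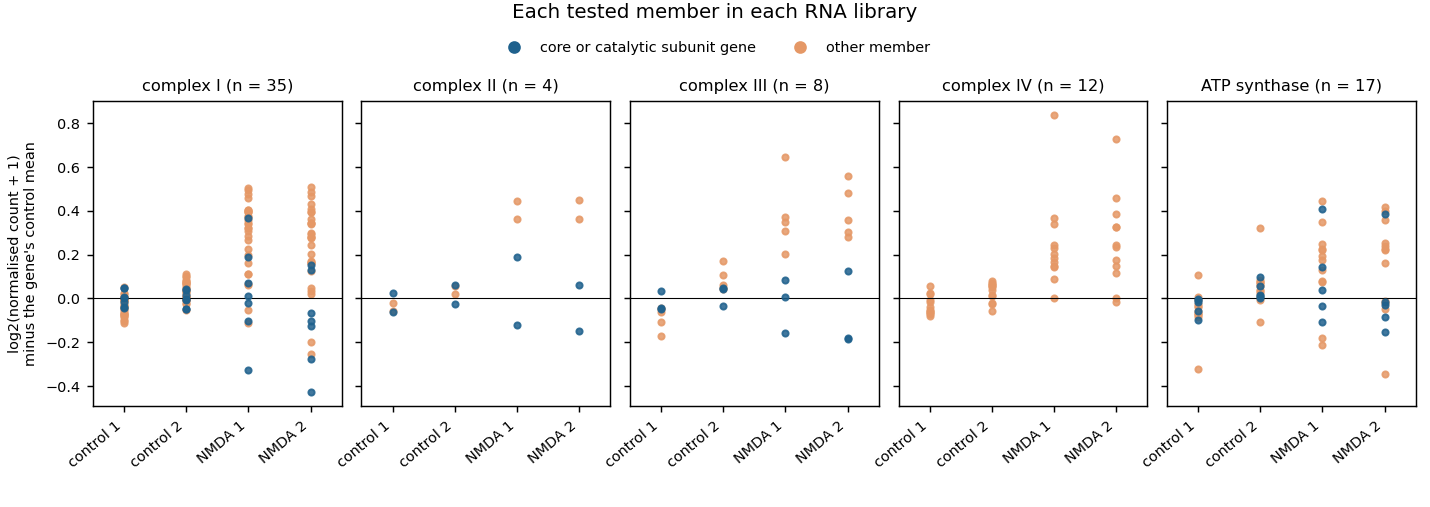
Each tested member in each of the 4 RNA libraries, as log2(normalised count + 1) minus the mean of the gene's control libraries, by complex. Blue points are core or catalytic subunit genes, among them the central stalk genes of the ATP synthase. The blue points spread around 0 after NMDA (median change -0.05). Orange points are the other members, most of which lie above 0 in both NMDA libraries. This grouping was made after the values had been seen.

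Complex II, succinate dehydrogenase, belongs to the citric acid cycle as well as to the chain and is encoded in the nucleus alone. Its 4 genes split by position in the enzyme, with both membrane anchor genes rising and neither head gene passing. Sdhc, an anchor subunit that helps bind ubiquinone and haem, read 1823 and 1879 in the controls and 2516 and 2527 after NMDA. The rise was 0.45 ± 0.08 (1.36-fold, adjusted p = 0.003). Sdhd, the other anchor, read 1661 and 1800 against 2223 and 2222 (0.36 ± 0.08, adjusted p = 0.00898). Sdha, the flavoprotein that oxidises succinate, read 5043 and 4875 against 4564 and 4471, lower in both NMDA libraries, but did not pass (-0.13 ± 0.08, adjusted p = 0.208). Sdhb, the iron-sulphur subunit, read 2113 and 2302 against 2514 and 2305 (0.13 ± 0.09, adjusted p = 0.28). In all 2 of the 4 genes rose (50%) and none fell, beside 20.5% and 21.5% of all genes tested, and their median was 0.24. Without control replicate 1 neither anchor gene passed (adjusted p = 0.0623 for Sdhc and 0.136 for Sdhd), and without control replicate 2 only Sdhc did.

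In complex III, the cytochrome bc1 complex, all 5 genes of its small accessory subunits rose, while none of the 3 genes of its core proteins and iron-sulphur protein passed. Uqcr11, the smallest subunit, read 809 and 940 in the controls and 1363 and 1286 after NMDA, a rise of 0.60 ± 0.10 (1.52-fold, adjusted p = 0.00243). Uqcrh, the hinge protein at the cytochrome c1 docking site, read 2025 and 2202 against 2692 and 2950 (0.42 ± 0.09, adjusted p = 0.0068). Both genes were higher in each NMDA library than in either control. Uqcrb, known as the ubiquinone-binding protein, read 1083 and 1152 against 1381 and 1434 (0.33 ± 0.08, adjusted p = 0.0137). Uqcrq read 1005 and 1272 against 1463 and 1394, with the controls further apart (0.34 ± 0.12, adjusted p = 0.0457). The fifth small subunit gene, Uqcr10, rose by 0.24 ± 0.08 (adjusted p = 0.0469), a call not made by DESeq2 (adjusted p = 0.0843) or with no filter on low values (0.0553). Of the core protein genes, Uqcrc2 read 4439 and 4705 against 4102 and 4032 (-0.17 ± 0.08, adjusted p = 0.127). Uqcrc1, the other core protein, read 4363 and 4172 against 4284 and 3748, and the groups overlapped (-0.09 ± 0.09, adjusted p = 0.461). Uqcrfs1, the Rieske iron-sulphur protein, had a change of 0.11 (adjusted p = 0.324). Of the 8 genes 5 rose (62.5%) and none fell, beside 20.5% and 21.5% of all genes tested, and their median was 0.29. Rises were 1 without control replicate 1 (Uqcr11), 3 without control replicate 2 and 3 without NMDA replicate 2.

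Complex IV, cytochrome c oxidase, has its catalytic centres on subunits encoded in mitochondrial DNA, so its nuclear genes are all of surrounding subunits. Of the 12 tested, 6 rose (50%) and none fell, beside 20.5% and 21.5% of all genes tested, with a median log2 change of 0.23. The 12 include Cox7a2l, which is not grouped with the subunits below. Cox6b2 read 291 and 268 in the controls and 500 and 463 after NMDA, a rise of 0.78 ± 0.11 (1.72-fold, adjusted p = 0.00148), and it passed with each of the 4 libraries left out in turn. Its partner isoform in most tissues, Cox6b1, which bridges the monomers of the enzyme, read 3036 and 3323 against 3659 and 3985 (0.27 ± 0.09, adjusted p = 0.0407). Both isoforms of this pair were higher in each NMDA library than in either control. Cox6c read 2369 and 2429 against 3039 and 3299 (0.40 ± 0.08, adjusted p = 0.00599). Cox7a2, the liver-type isoform of its subunit, read 1953 and 2097 against 2612 and 2645 (0.38 ± 0.08, adjusted p = 0.00706). Cox7b rose by 0.28 ± 0.09 (adjusted p = 0.0352) and Cox6a1, the liver-type isoform of subunit 6a, by 0.24 ± 0.08 (adjusted p = 0.0399). Cox4i1, the isoform of subunit 4 used in normal oxygen, read 6190 and 6269 against 6889 and 6746, higher in both NMDA libraries but not past the threshold (0.13 ± 0.08, adjusted p = 0.232). Cox8a had a change of 0.16 (adjusted p = 0.152), and Cox5a, with groups that overlapped, one of -0.01 (adjusted p = 0.951). With either control library left out, Cox6b2 was the only complex IV gene to rise, and without NMDA replicate 2 it was 4 genes.

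Isoforms of muscle, testis or low oxygen read low in these cultures, apart from Cox6b2. Cox4i2, the low-oxygen isoform of subunit 4, read 5.39 and 3.59 in the controls and 3.51 and 2.1 after NMDA. Cox7a1, the heart and muscle isoform, read 10.8 and 7.19 against 10.5 and 6.29. The muscle isoforms Cox6a2 and Cox8b were listed at 0 in both controls and at 2.1 or less after NMDA, and Cox8c was listed at 0 in all 4 libraries. The testis isoform Cox7b2 read 1.76 or less everywhere. Ndufa4l2, a paralogue of Ndufa4 that low oxygen induces in many cells, read 3.59 and 3.59 against 0.88 and 4.2. Ndufa4 itself, named for complex I but now placed in complex IV, read 3562 and 3912 against 4824 and 4741, a rise of 0.36 ± 0.08 (adjusted p = 0.0109).

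The ATP synthase had 3 rises among 17 genes (17.6%, near the 20.5% of all genes tested), the lowest share of the 5 complexes, and a median of 0.17. The 3 were Atp5e, Atp5l and Atp5j2, and none fell. Atp5e, the small epsilon subunit of the central stalk, read 1138 and 1302 in the controls and 1614 and 1589 after NMDA (0.40 ± 0.09, 1.32-fold, adjusted p = 0.00996). Atp5l, subunit g in the membrane, read 2147 and 2350 against 2862 and 3002 (0.38 ± 0.08, adjusted p = 0.00795). Atp5j2, subunit f, read 2114 and 2212 against 2531 and 2532 (0.23 ± 0.08, adjusted p = 0.046). These 3 were higher in both NMDA libraries, as was Atp5k, subunit e, which narrowly missed the threshold (0.29 ± 0.10, adjusted p = 0.0528). In the catalytic head, Atp5b, the catalytic beta subunit, read 26794 and 26873 against 26198 and 25302 (-0.06 ± 0.10, adjusted p = 0.675). Atp5a1, the alpha subunit, read 20149 and 20597 against 18901 and 18337 (-0.13 ± 0.10, adjusted p = 0.319). The 3 genes Atp5g1, Atp5g2 and Atp5g3 encode the same mature c subunit of the rotor, and their changes were 0.04, 0.17 and 0.22, none past the threshold (adjusted p = 0.735, 0.169 and 0.0789). The 4 peripheral stalk genes had changes from 0.03 to 0.40 and none passed. Without control replicate 1 no ATP synthase gene rose, and with quantile normalisation 8 did. Atp5j2 was not called by DESeq2 (adjusted p = 0.0722). Atp5s and Atp5sl carry the name but are not subunits, and their changes of -0.10 and -0.28 did not pass.

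Over the complexes, members were then grouped by position in the enzyme, a grouping made after the values had been seen and given as a description. The group called core or catalytic held 17 genes of complexes I, II and III and of the ATP synthase head and central stalk. It included 1 rise (Atp5e, of the stalk) and 1 fall (Ndufs1), and its median was -0.05. The 54 other subunit genes tested included 30 rises (55.6%) and no fall, beside 20.5% and 21.5% of all genes tested, with a median of 0.28. Cox6b2 and the 4 tested genes placed elsewhere (Ndufa4, Cox7a2l, Atp5s and Atp5sl) were in neither group. Summed normalised counts of the core genes were 89702 and 90668 in the controls and 87964 and 83861 after NMDA. The other subunits summed to 97483 and 102637 in the controls and to 116879 and 116250 after NMDA. The median of the other subunits ran from 0.20 to 0.35 over the settings tried, and that of the core genes from -0.08 to 0.04.

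Beyond the members, 10 lists held genes for assembly, electron carriers and coenzyme Q synthesis, transcription, the citric acid cycle, import and membrane organisation. Of their 126 genes tested, 23 rose (18.3%) and 19 fell (15.1%), with a median of -0.01. Among subunits whose names the symbol rule misses, picked here after their values were seen, Cyc1, the cytochrome c1 of complex III, had a change of -0.01 (adjusted p = 0.962) and Ndufab1, the acyl carrier protein of complex I, one of 0.02 (adjusted p = 0.862). Usmg5, a small membrane subunit of the ATP synthase, read 1429 and 1702 against 1935 and 2039 and rose by 0.35 ± 0.10 (adjusted p = 0.0236).

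Assembly factors were called in both directions, as were all genes tested (20.5% rising and 21.5% falling). Shares rising and falling were both 11.8% in the complex I list and both 28.6% in the complex III list. For complex IV they were 22.7% and 13.6%. In the complex I list, which holds the subunit gene Ndufab1 beside the factors, 2 of 17 rose (Ndufaf3, 0.42, and 1810043H04Rik, now Ndufaf8, 0.74) and 2 fell (Foxred1, -0.37, and Tmem186, -0.47). In the complex III list, which holds Cyc1 beside the factors, 2 of 7 rose and 2 fell, the rises being in 2900010M23Rik and AI462493, now Uqcc2 and Uqcc3, and the falls in Ttc19 and Uqcc, now Uqcc1. For complex IV, 5 of 22 rose and 3 fell. Cox17, the copper chaperone that feeds the copper centres of complex IV, read 83.5 and 144 in the controls and 215 and 230 after NMDA, a rise of 1.01 ± 0.24 (adjusted p = 0.00994). Sco1, which takes copper from Cox17 to its site, read 230 and 229 against 172 and 140, a change of -0.56 ± 0.15 (adjusted p = 0.0173). Of the complex II factors, 1 of 4 rose (1110058L19Rik, now Sdhaf4), and of the 5 further ATP synthase genes 2 rose (Usmg5 and 1110001J03Rik, now Fmc1). Without control replicate 1 none of the assembly factors of complexes I to IV was called (adjusted p = 0.0669 for Cox17 and 0.119 for Sco1), and without control replicate 2 only 2 rises in complex IV factors were left. DESeq2 did not call Sco1 (adjusted p = 0.0587).

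Of 14 genes for electron carriers and coenzyme Q synthesis, 3 rose (21.4%, near the 20.5% of all genes tested) and 1 fell (7.14%, beside 21.5%). Both NMDA libraries lay above both controls in 36.6% of all genes tested and below both in 37.8%. Cycs, cytochrome c, which carries electrons from complex III to IV and on release starts apoptosis, read 2534 and 2813 against 3441 and 3334 (0.34 ± 0.09, adjusted p = 0.0134). Coq10b, a protein that binds coenzyme Q, read 242 and 281 against 460 and 672, a rise of 1.09 ± 0.18 (2.13-fold, adjusted p = 0.00227). Pdss2, which helps make the side chain of coenzyme Q, read 185 and 190 against 117 and 117 (-0.68 ± 0.14, adjusted p = 0.00667). All 3 had groups that did not overlap, and by limma Coq10b alone of them passed without either control library.

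Of 17 regulators of respiratory chain transcription, 4 fell (23.5%, near the 21.5% of all genes tested) and 1 rose (5.88%), with a median of -0.14. Ppargc1a, the coactivator PGC-1alpha that drives mitochondrial gene expression in many tissues, read 1610 and 1412 in the controls and 900 and 556 after NMDA. It fell by 1.09 on the log2 scale (SE 0.19, adjusted p = 0.00318), with the NMDA libraries apart from each other but both below the controls. Its relative Ppargc1b read 129 and 87.4 against 64.1 and 62.9 (-0.73 ± 0.22, adjusted p = 0.0293). Tfb2m and Polrmt, the initiation factor and the RNA polymerase of mitochondrial transcription, had changes of -0.66 ± 0.10 (adjusted p = 0.00213) and -0.47 ± 0.10 (adjusted p = 0.00689). Gabpb2, a subunit of the ETS factor GABP, rose from 229 and 245 to 330 and 442 (0.69 ± 0.15, adjusted p = 0.00834). Its DNA-binding partner Gabpa (0.23, adjusted p = 0.189), Nrf1, the gene of NRF-1 (-0.14, adjusted p = 0.303), and Tfam, the packaging factor of mitochondrial DNA (-0.21, adjusted p = 0.121), did not pass. Without control replicate 1, 2 of the 4 falls were left, Ppargc1a (adjusted p = 0.0464) and Tfb2m (0.0429), and Gabpb2 no longer passed (0.0817). The 13 subunits encoded in mitochondrial DNA are not analysed here.

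**Figure D4:**
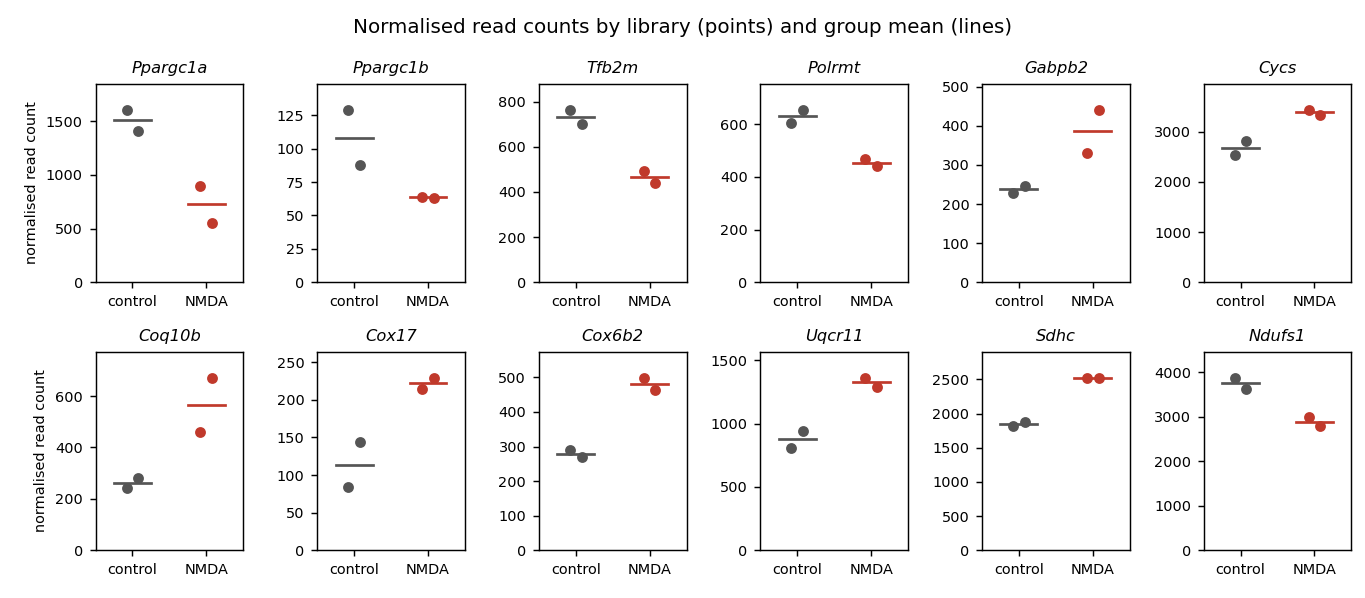
Normalised read counts of 12 genes in each library (points) with the group mean (line), with the vertical axis starting at 0 and the control group in grey beside NMDA in red. In each panel both NMDA libraries lie on the same side of both controls. They lie below them for Ppargc1a, Ppargc1b, Tfb2m, Polrmt and Ndufs1 and above them for the other genes. All 12 genes were drawn from those called. Over all genes tested, both NMDA libraries lay above both controls in 36.6% and below both in 37.8%.

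Of 17 citric acid cycle enzymes, which feed the chain, 3 rose (17.6%) and 4 fell (23.5%), near the shares of all genes tested. Idh2, the mitochondrial isocitrate dehydrogenase that makes NADPH, read 857 and 833 against 1275 and 1527 (0.72 ± 0.10, adjusted p = 0.00149), and Suclg1 and Suclg2, subunits of succinyl-CoA ligase, rose by 0.67 and 0.79. The falls were in Dlst (-0.33), Dlat (-0.29), Ogdh (-0.28) and Dld (-0.23). Pdha1 (-0.12, adjusted p = 0.267) and Pdhb (-0.15, adjusted p = 0.15), subunits of the pyruvate dehydrogenase complex to which Dlat and Dld also belong, did not pass. Of 13 genes of the outer membrane and protein import, 1 rose and 1 fell (7.69% each, below the shares of all genes tested). The rise was in Hspe1, the chaperonin partner of Hsp60 (0.43), and the fall in Tomm70a, a receptor for incoming proteins (-0.36). Of 11 genes for supercomplexes and the folding of the inner membrane, 3 rose (27.3%) and 2 fell (18.2%). Opa1, which fuses inner membranes and shapes cristae, read 3498 and 3519 against 2418 and 2292, a change of -0.58 ± 0.08 (adjusted p = 0.0013). Immt, the mitofilin of crista junctions, also fell (-0.34 ± 0.08, adjusted p = 0.00869), while Phb, Higd2a and 2310028O11Rik, now Minos1, rose by 0.30 to 0.39. With either control library left out the 3 rises of the citric acid cycle remained 3 in number and its falls were 0, and Opa1 still fell (adjusted p = 0.031 and 0.0258) while Immt did not pass (0.105 and 0.0979). Without control replicate 1 neither import gene passed (adjusted p = 0.0687 for Hspe1 and 0.121 for Tomm70a).

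**Figure D5:**
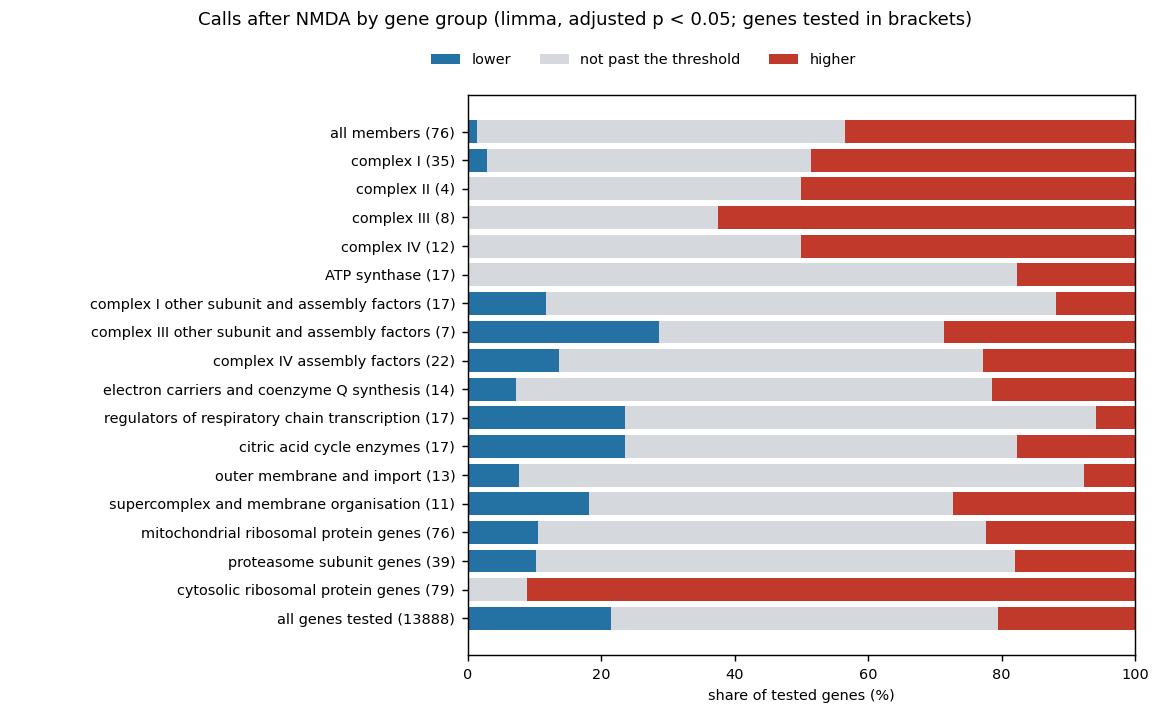
Share of tested genes called lower (blue), not past the threshold (grey) and higher (red) after NMDA by limma, in percent, for the members, each complex, related gene lists and all genes tested, with the number tested in brackets. The lists of complex II factors and of further ATP synthase genes, with 4 and 5 genes, are not drawn, and the members stand at 43.4% higher and 1.32% lower beside 20.5% and 21.5% over all genes.

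Other families of genes for large complexes were set beside the members. Of the genes of the cytosolic ribosome, 72 of 79 rose and none fell, with a median of 0.50. Of the mitochondrial ribosomal protein genes, 17 of 76 rose (22.4%) and 8 fell (10.5%), with a median of 0.07. Of the proteasome subunit genes 7 of 39 rose (17.9%) and 4 fell (10.3%), with a median of 0.08. Over all genes tested 20.5% rose and 21.5% fell. No test was made between the lists.

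The neuronal label was checked with markers, whose counts stand beside 20.5% of all genes tested rising and 21.5% falling. Tubb3, a neuronal tubulin, read between 24096 and 28109 in the 4 libraries. Of 13 pan-neuronal genes, 6 fell and 1 rose, and their summed level went from 187975 and 196283 in the controls to 174597 and 156169 after NMDA. Markers of other cells were measured too. All 10 neural progenitor genes rose (sums of 14088 and 16706, then 25299 and 34116), as did 9 of 10 of fibroblasts and mesenchyme (115802 and 105504, then 212623 and 287408), 5 of 6 tested of astrocytes (8445 and 9858, then 12687 and 18516), 3 of 5 of the oligodendrocyte lineage (1362 and 1281, then 1715 and 2147) and 6 of 7 of the cell cycle (4943 and 5634, then 7492 and 10204). Of the endothelial genes 1 of 4 rose (sums of 317 and 295, then 437 and 550), none of 3 muscle genes did (101 and 94.6, then 126 and 138), and the 5 microglial genes were too low to test, with sums of 13.2 or less. Cldn5, of endothelium, was listed at 0 in all 4 libraries. By library, the median log2 level above the control mean was 0.70 and 1.06 for the progenitor genes in NMDA replicates 1 and 2, and 0.21 and 0.23 for the respiratory chain members. The part of these markers in the members' changes was not tested. In RNA from whole cultures, fewer cells of a type and less RNA per cell cannot be told apart.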

How the data were processed

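Gene expression was measured by RNA-seq in 2 control and 2 NMDA-treated libraries. The deposited values are a signal, normalised read counts per gene that the authors made with TopHat, Bowtie, HTSeq and DESeq on the mouse build mm9, per the submitters' processing notes, with no versions or counting settings given in the sources used here. In each library 99.98% or more of the values were whole multiples of 1 step, within 0.0051 normalised counts. The authors' values thus kept the read counts, which were recovered for the count tests. Whether strand was used is not given, so reads of overlapping genes and processed copies of these short genes may be split between them.

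In the tables analysed, values were tested with limma 3.58.1 (R 4.3.3, trend, 2-sided) on log2(value + 1), with group as the only term, over genes with a mean of at least 10. Alternatives were edgeR 4.0.16, DESeq2 1.42.0, pseudocounts of 0.5 and 8, no filter or a mean of at least 50, TMM and quantile scaling, a replicate block and each library left out. Where an arm then held 1 library, limma took its spread from the other group. Data were also simulated with 13888 genes, 100 of them changed at each size. There limma recovered 86% of log2 changes of 1 and 38% of those of 0.5, with 4 false calls. The members and gene lists were chosen with earlier results of these data known. Named members are, per complex, up to 4 with the smallest p in each direction, the 2 with the highest mean and all isoform pairs, and per further list up to 2 in each direction. Of these, 1 gene is not reported here, though it is counted in the totals. Other genes named were picked after their values were seen. Promoters came from RefSeq (GRCm38.p6), matched by symbol. Member symbols were matched to current names for 81 genes and to older names for 3. Levels were not compared between genes, since transcript lengths were not used here. The 3 chromatin tables were not used here.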

Additional observations from a re-analysis of the deposited data

How the results depend on the processing

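The median of all members and of each complex stayed above 0 under all alternatives run, while counts fell when a control library was left out. Leaving out each library in turn gave 1069 to 3033 rises and 915 to 3334 falls over all genes, 2 to 31 rises and 0 to 4 falls over the members, 0 to 15 rises and 0 to 3 falls in complex I, 0 to 2 rises in complex II, 1 to 4 in complex III, 1 to 7 in complex IV, 0 to 4 rises and 0 to 1 falls in the ATP synthase, and 4 to 18 rises and 3 to 22 falls over the other lists. The medians then ran from 0.18 to 0.26 over the members, 0.20 to 0.33 in complex I, 0.18 to 0.30 in complex II, 0.18 to 0.33 in complex III, 0.19 to 0.24 in complex IV, 0.081 to 0.21 in the ATP synthase and -0.044 to 0.027 over the other lists. Quantile normalisation gave medians of 0.29 over the members, 0.36 in complex II, 0.38 in complex III, 0.32 in complex IV and 0.26 in the ATP synthase, where 8 genes rose. With DESeq2 the other lists had 12 rises and 10 falls. The cause of these shifts was not tested, and leaving a library out also lowers the number of samples. The replicate numbers correlated in their deviations (r = 0.343 over 13888 genes, 2 pairs), but the labels tie no number to a shared culture. With the replicate block 43 members rose (56.6%, beside 26.5% of all genes) and 3 fell (3.95%, beside 27.2%; Ndufs1, Ndufv1 and Atp5sl), with 8 rises and 1 fall in the ATP synthase and 2 falls in complex I, and it lost no member's call. For single genes named, 707 results kept their side of the threshold, 120 lost it and 5 gained it. On simulated data of 13888 genes limma recovered 38% of log2 changes of 0.5, with 100 genes changed by that much. Far fewer genes changed there than were called here, so this share need not hold for the members. A member that did not pass is still not shown to be unchanged.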
